A study of Homo sapiens with 9 samples.

Results

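The 9 genes described here, *CLDN1*, *CLDN3*, *CLDN4*, *CLDN6*, *CLDN7*, *OCLN*, *MARVELD2*, *TJP1* and *F11R*, encode claudins and other proteins of the tight junction. They were taken by name, with Ensembl identifiers matched to symbols, from a table of raw gene counts that lists 60660 genes, and all 9 were among the 17794 genes with enough counts to be tested. The table comes from RNA-seq of OVCAR3, a human cell line derived from an ovarian carcinoma, with 3 groups of 3 libraries. Control cells were transiently transfected with a LacZ plasmid (pCpGfree-vitroHLacZ), and CTCFL-OE cells with pCpGfree-vitroHBORIS, which carries the open reading frame of *CTCFL*, also called *BORIS*, a testis-specific paralogue of the chromatin factor CTCF that tumours can reactivate. Both received 2 µg of plasmid and were harvested after 48 h. CTCFL-KD denotes knockdown of *CTCFL*, and its RNA came from earlier experiments that the study took over; the knockdown agent, its own control and its harvest time are not given in the sources used here, so that a difference between CTCFL-KD and Control in *CTCFL* level cannot be told apart from a difference between experiments. For the plasmid transfections the paper describes 3 independent biological replicates, each a pool of 3 technical ones. It does not describe how the CTCFL-KD replicates were made. All libraries come from 1 cell line, so p-values measure the spread between replicates of that line.

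Tight junctions seal the space between neighbouring epithelial cells near their apical side. Claudins are small membrane-spanning proteins that join across the gap into strands and set which ions pass, occludin (*OCLN*) and tricellulin (*MARVELD2*) belong to the MARVEL family and lie within the strands and at the corners where cells meet, junctional adhesion molecule A (*F11R*) is an immunoglobulin-type adhesion protein, and ZO-1 (*TJP1*) is the cytoplasmic scaffold that ties the strands to actin. Epithelial ovarian carcinomas are known for abundant *CLDN3* and *CLDN4*, whose products are receptors for an enterotoxin of *Clostridium perfringens*, and *CLDN6* is a claudin of the embryo that is found again in some ovarian tumours.

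Genomic positions are given on GRCh38 with the gene models of GENCODE 44. *CLDN3* (ENSG00000165215.6, chr7:73768997-73770270, minus strand) and *CLDN4* (ENSG00000189143.9, chr7:73799542-73832690, plus strand) are neighbours with 29271 bases between them, and *MARVELD2* (ENSG00000152939.17, chr5:69415065-69444330) and *OCLN* (ENSG00000197822.11, chr5:69492292-69558104) lie 47961 bases apart on the plus strand of chromosome 5. *CLDN1* (ENSG00000163347.6) is at chr3:190305707-190322446, *TJP1* (ENSG00000104067.17) at chr15:29699367-29968915, *CLDN6* (ENSG00000184697.7) at chr16:3014712-3020071, *CLDN7* (ENSG00000181885.18) at chr17:7259903-7263983 and *F11R* (ENSG00000158769.18) at chr1:160995211-161021343, all on the minus strand. RefSeq promoter windows (GRCh38.p14, 250 bases before to 50 after a start site) were matched to 8 of the 9 members, with 13 windows in all. The E-box CAGGTG, the letters that SNAI1 and ZEB repressors of epithelial genes are known to bind, was searched on both strands and occurred in 5 of these 8 members, against 24.1% of all genes with a window. By window this was 6 of 13, against 20.6% of all windows. One site of each of these 5 genes is printed 5′ to 3′ on the strand of its gene, with the E-box of that site in capitals. The *CLDN7* stretch also holds an E-box of the opposite strand (cacctg, first base at -9), left in small letters. The sites are shown because a gene of this repressor group changed in the knockdown, as given further on. A link between the E-box and that change was not tested. By the thresholds given further on, *CLDN3*, *CLDN7* and *OCLN* were higher there, as was *CLDN4*, which has no E-box in its windows, while *CLDN6* and *TJP1* did not pass.

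*CLDN3* (chr7:73770221-73770246, first motif base at +37 from the start site): caaagccacaggCAGGTGcaggcgca
*CLDN6* (chr16:3018134-3018163, +33): ttatctccttcgCAGGTGagtccggggcta
*CLDN7* (chr17:7262481-7262510, -20): cctacatatactCAGGTGcgccccacctgt
*OCLN* (chr5:69492502-69492531, -33): ccatccgagtttCAGGTGaattggtcaccg
*TJP1* (chr15:29969120-29969149, -88): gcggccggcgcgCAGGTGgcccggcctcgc

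The heptamer AGGGGGC, the core of the motif that CTCF and its paralogue CTCFL recognise, occurred on either strand in the windows of *CLDN1*, *OCLN* and *TJP1*, 3 of 8 members, against 16.6% of all genes. By window this was 3 of 13, against 14.4% of all windows. It is shown in capitals for *CLDN1*, the 1 member called as lower in the knockdown by the thresholds given further on. *OCLN* (first motif bases at -165 and -53), which was called as higher there, and *TJP1* (-112 and -89) hold it on the opposite strand and are not printed. The *CLDN1* stretch lies in the 94 bases between *CLDN1* and *CLDN16*, which starts on the opposite strand, so that it is upstream of both claudins. In the sequences printed here the E-box and this heptamer share no base. The grainyhead letters AACNNGTT, searched on both strands, were in no member window and in 4.36% of all genes. These matches describe letters in short windows, not bound sites.

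*CLDN1* (chr3:190322500-190322529, first motif base at -72): ctgaaaccgccAGGGGGCgctccccggctg

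*CTCFL* itself, the targeted gene, had 6, 9 and 10 counts in the Control libraries, 36, 34 and 72 in CTCFL-OE libraries and 0, 1 and 0 in CTCFL-KD. Its level was higher in CTCFL-OE (log2 fold change 2.73 ± 0.48 SE, adjusted p = 0.0287, by the quasi-likelihood test of edgeR, with p adjusted after Benjamini-Hochberg over all genes), where reads can come from the plasmid; without Control replicate 1, 2 or 3 the adjusted p was 0.169, 0.176 or 0.125. The 1 count in CTCFL-KD against 25 in Control gave a ratio of 0.0567 (exact 95% interval 0.00138 to 0.346, counting error only). Libraries held 14332622 to 24490080 counts, and reads of mitochondrially encoded genes took 6.16 to 6.52% of them in Control, 7.40 to 14.9% in CTCFL-OE and 7.80 to 11.8% in CTCFL-KD. All 12 ovarian carcinoma markers averaged at least 1 CPM (counts scaled to the library's total, after TMM adjustment) in each group, and their summed level was 6051 to 6160 CPM in Control, 5124 to 5632 in CTCFL-OE libraries and 10067 to 17183 in CTCFL-KD. The sum did not speak for the whole list. In CTCFL-KD 6 of the 12 were higher by the differential expression thresholds given further on, against 15.3% of all genes. *KRT8* (1637 to 4091 CPM on average), *KRT18* (700.5 to 2380) and *MUC16* (222 to 1592) added the most to the sum. *KRT7* was lower (1451 to 670, adjusted p = 0.016), *WT1* was at -0.63 (adjusted p = 0.027), and *PAX8* and *SOX17* did not pass the adjusted p. Markers of other cell types were low but also differed between groups. The 10 fibroblast markers summed to 28.0 to 33.8 CPM in Control, 24.99 to 44.2 in CTCFL-OE libraries and 37.8 to 43.0 in CTCFL-KD, the 7 endothelial ones to 8.86 to 9.87, 11.7 to 12.6 and 12.4 to 21.0, and the 6 leukocyte ones to 0.250 to 0.506, 0.456 to 1.23 and 2.08 to 3.52. *PTPRC*, *CDH5* and *DCN* averaged under 1 CPM in every group. *COL1A1*, at 29.8, 33.5 and 23.3 CPM on average in Control, CTCFL-OE and CTCFL-KD, made up most of the fibroblast sum, and *VWF*, at 4.94, 8.07 and 4.58, passed the adjusted p in CTCFL-OE (0.71, adjusted p = 0.095). *COL1A2* went from 0 counts in every Control library to 13.5 to 14.2 CPM in CTCFL-KD, and *KDR* (1.77 to 11.7 CPM on average, adjusted p = 0.00034), *CD14* (0.126 to 1.91, adjusted p = 0.00057) and *POSTN* (0.131 to 0.865, adjusted p = 0.0029) were higher there and *PECAM1* lower (1.81 to 0.297, adjusted p = 0.00051).

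Before any comparison, the members were ordered by level in Control, as CPM per kilobase of exon so that genes of different length can be set side by side. *CLDN1* stood highest at 95.3 ± 3.2 (SD, n = 3), followed by *CLDN6* at 85.0 ± 2.4, *CLDN3* at 77.6 ± 4.8, *CLDN7* at 39.2 ± 1.0, *CLDN4* at 23.8 ± 0.67, *F11R* at 20.6 ± 1.2, *TJP1* at 13.1 ± 0.26, *MARVELD2* at 5.95 ± 0.22 and *OCLN* at 4.55 ± 0.29. The exon length counts all annotated isoforms, so that a gene with exons unused in these cells is placed too low. No pair of neighbours in this order overlapped between its libraries. In CTCFL-KD the order began with *CLDN3* at 487 ± 239 CPM per kilobase, above *CLDN6* at 159 ± 94.2, *CLDN7* at 106 ± 39.8, *CLDN4* at 77.0 ± 20.1, *F11R* at 43.3 ± 12.4 and *CLDN1* at 28.5 ± 7.1, and it ended with *OCLN* at 10.9 ± 2.5, *MARVELD2* at 9.39 ± 2.8 and *TJP1* at 8.38 ± 3.0. *CLDN1* thus held rank 1 in Control and rank 6 in CTCFL-KD, and *CLDN3* ranks 3 and 1. Only *CLDN3* over *CLDN6*, *CLDN4* over *F11R* and *CLDN1* over *OCLN* were separated from the next gene in all CTCFL-KD libraries. In CTCFL-OE *CLDN3* was at 152 ± 52.3, *CLDN6* at 84.1 ± 46.1, *CLDN7* at 59.7 ± 17.4, *CLDN1* at 46.6 ± 23.5, *CLDN4* at 33.4 ± 11.1, *F11R* at 21.4 ± 8.5, *TJP1* at 10.4 ± 0.44, *OCLN* at 7.82 ± 2.2 and *MARVELD2* at 6.12 ± 2.2, and only *TJP1* was separated from both of its neighbours. With the longest transcript as the length, 23 of the 27 ranks were the same, and the lowest pair in Control, *MARVELD2* and *OCLN*, then overlapped. So did *TJP1* and *OCLN* in CTCFL-OE, where *TJP1* was then separated from *F11R* only.

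**Figure D1:**
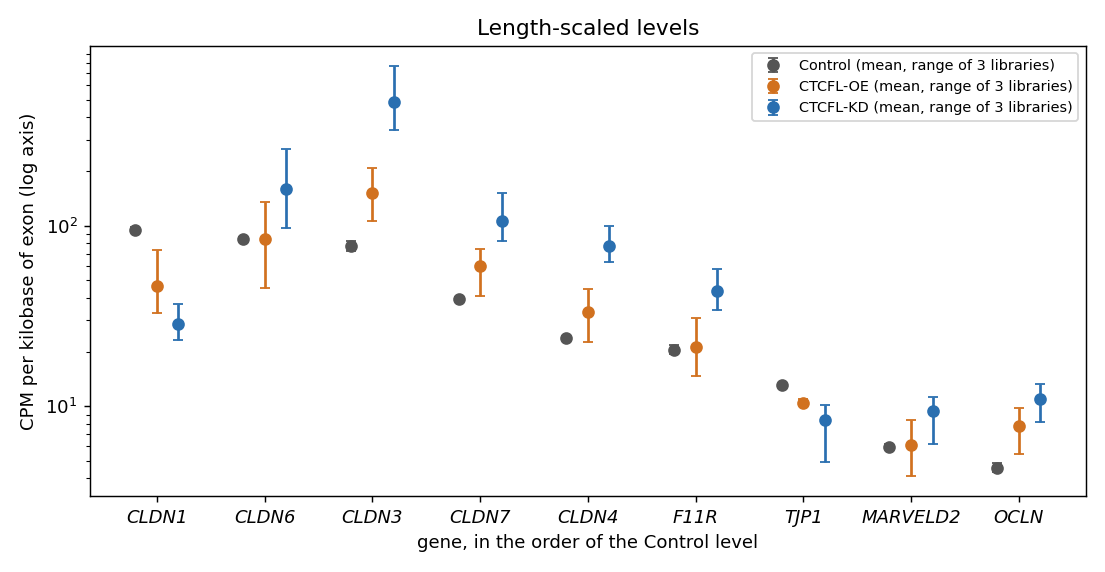
Mean CPM per kilobase of exon (log axis) of the 9 members in Control, CTCFL-OE and CTCFL-KD, with bars from the lowest to the highest of 3 libraries, in the order of the Control level. *CLDN1* runs down from 95.3 in Control to 28.5 in CTCFL-KD and *CLDN3* up from 77.6 to 487.

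The first comparison asked how junction genes differ when *CTCFL* is knocked down. A differentially expressed gene (DEG) was called at an absolute log2 fold change over 1 and an adjusted p under 0.05 for CTCFL-KD and under 0.1 for CTCFL-OE, the thresholds of the study. In CTCFL-KD 6 of the 9 members were DEGs, 5 higher (*CLDN3*, *CLDN4*, *CLDN7*, *OCLN* and *F11R*) and 1 lower (*CLDN1*); of all genes tested 23.2% were DEGs in this comparison, 15.3% higher and 7.94% lower. The same 6 members were those that passed the adjusted p, which 38.2% of all genes did. The median log2 fold change was 1.07 over the members and 0.08 over all genes. In 6 members every CTCFL-KD library lay above every Control library and in 2 every one lay below, where 28.7% and 27.6% of all genes, together 56.3%, did not overlap in these directions. In bulk RNA, fewer cells of a type and less RNA per cell cannot be told apart. The sums of the ovarian carcinoma, fibroblast, endothelial and leukocyte markers were also higher in all CTCFL-KD libraries than in Control, though *KRT7*, *WT1* and *PECAM1* were lower. The mitochondrial share was likewise higher in all CTCFL-KD libraries than in Control, and within CTCFL-KD it was highest, 11.8%, in replicate 1, which also had the fewest counts of the 9 libraries. The part of these shifts in the result was not tested.

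*CLDN3*, a barrier-forming claudin, had 104, 92.4 and 99.9 CPM in Control, 135, 182 and 266 in CTCFL-OE libraries and 973, 434 and 455 in CTCFL-KD. It rose the most of the members in CTCFL-KD, by 2.65 ± 0.35 on the log2 scale (adjusted p = 0.000288), and all 3 knockdown libraries were above all the others. *CLDN4*, its genomic neighbour, which is known for restricting sodium passage, was at 111, 109 and 115 CPM in Control, 106, 154 and 211 in CTCFL-OE libraries and 470.2, 295 and 320.4 in CTCFL-KD. It rose by 1.69 ± 0.27 in the knockdown (adjusted p = 0.000796), again with no overlap with either other group. *CLDN7*, which binds the adhesion protein EpCAM, measured 100.3, 95.4 and 97.5 CPM in Control, 101, 159 and 186 in CTCFL-OE libraries and 379.7, 211 and 205 in CTCFL-KD, a rise of 1.44 ± 0.29 in the knockdown (adjusted p = 0.0029). Without CTCFL-KD replicate 1, which was the highest library for these 3 genes, the rises were 2.17, 1.46 and 1.09 and all remained DEGs.

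*CLDN1*, the claudin known to be required for the barrier of the epidermis, went the other way. Control libraries held 347, 334 and 357 CPM, CTCFL-OE libraries 119, 121 and 268, and CTCFL-KD libraries 84.6, 93.0 and 133. All 6 manipulated libraries were below all 3 Control libraries, and in CTCFL-KD *CLDN1* fell by 1.74 on the log2 scale (SE 0.32, adjusted p = 0.0019). *CLDN6* had 150.5, 143 and 149.9 CPM in Control, 78.2, 126 and 235 in CTCFL-OE libraries and 466, 169 and 197 in CTCFL-KD. Its CTCFL-KD libraries were above Control, but the difference of 0.91 ± 0.43 did not pass the test (adjusted p = 0.12), and it was 0.31 (adjusted p = 0.46) without CTCFL-KD replicate 1. Reads from the 40 exon bases that *CLDN6* shares with *TNFRSF12A* on the opposite strand, and from the 38 that *CLDN7* shares with *ELP5*, cannot be assigned with certainty, because the strand setting of the counting is not given in the sources used here.

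Of the MARVEL proteins, *OCLN* had 50.5, 48.4 and 54.9 CPM in Control, 61.6, 92.8 and 109.9 in CTCFL-OE libraries and 92.4, 127 and 149 in CTCFL-KD. It rose by 1.26 ± 0.24 in the knockdown (adjusted p = 0.0024), and the 3 Control libraries were below all 6 others. A near copy at another locus, *OCLNP1*, held at most 429 counts against at least 1009 of *OCLN*, and how reads matching both were counted is not given in the sources used here. *MARVELD2* was at 31.2, 33.3 and 31.4 CPM in Control, 22.1, 31.1 and 45.3 in CTCFL-OE libraries and 33.0, 57.3 and 60.8 in CTCFL-KD. Replicate 1 of CTCFL-KD lay within the Control range and the difference of 0.66 ± 0.28 did not pass (adjusted p = 0.087); without that replicate it was 0.89 (adjusted p = 0.0086), still under the fold that makes a DEG.

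The scaffold *TJP1* held 145, 148 and 150.3 CPM in Control, 115, 124 and 115 in CTCFL-OE libraries and 55.3, 115 and 114 in CTCFL-KD. Every manipulated library was below every Control library, and the knockdown difference was -0.64 ± 0.25 (adjusted p = 0.064). Leaving out CTCFL-KD replicate 1, the lowest library, gave -0.36 with an adjusted p of 0.013. The adhesion molecule *F11R* was at 98.4, 105 and 110.1 CPM in Control, 74.8, 93.0 and 157 in CTCFL-OE libraries and 291, 172 and 195 in CTCFL-KD, and it rose by 1.07 ± 0.29 in the knockdown (adjusted p = 0.013). This call was close to the fold threshold: *F11R* was no longer a DEG without CTCFL-KD replicate 1 (0.82, adjusted p = 0.020), without Control replicate 1 (1.02, adjusted p = 0.054) or with no filter on low counts (0.98). A gene model without a symbol (ENSG00000270149) shares 1853 exon bases with *F11R* on the same strand and held at most 7 counts, against at least 1641 of *F11R*.

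**Figure D2:**
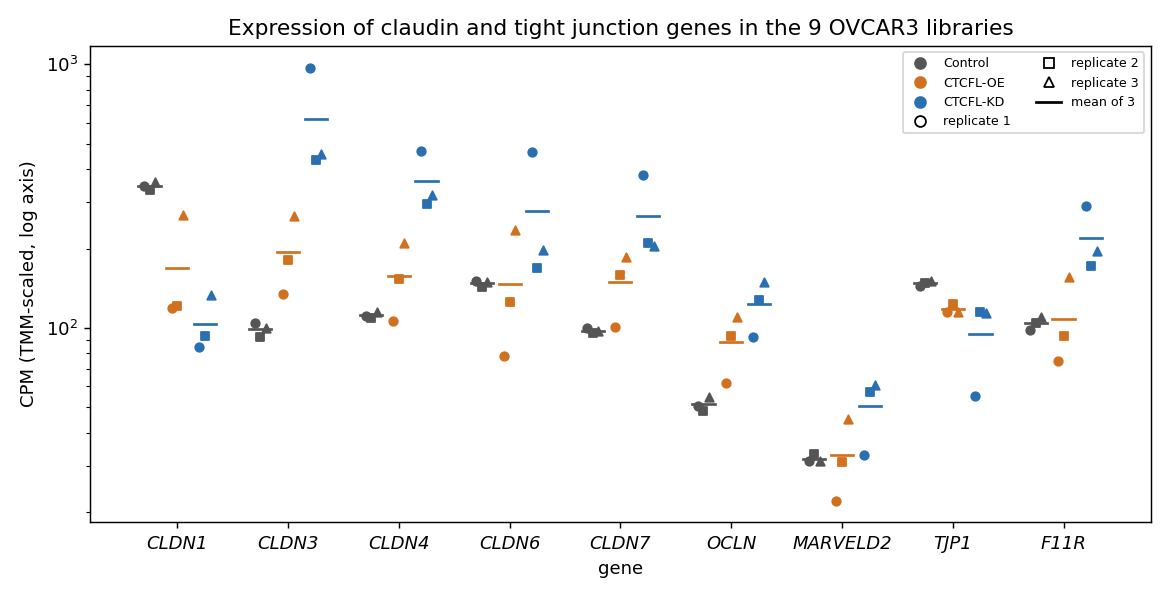
CPM after TMM scaling (log axis) of each member in every library, with the marker shape for the replicate and a bar at the mean of 3. Control points lie close together for each gene, the CTCFL-KD points of *CLDN3*, *CLDN4* and *CLDN7* stand above all the others, and those of *CLDN1* stand below Control.

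The second comparison asked the same of overexpression. None of the 9 members was a DEG in CTCFL-OE by edgeR's quasi-likelihood test, and none passed the adjusted p, while 2.07% of all genes were DEGs (1.37% higher, 0.702% lower) and 3.15% passed the adjusted p. At an unadjusted p under 0.05, which 17.7% of all genes had, there were 3 members, *CLDN1*, *CLDN3* and *OCLN*, and DESeq2 on all 9 libraries called 1, *CLDN1*. *CLDN1* differed by -1.03 ± 0.31 (adjusted p = 0.14), *CLDN3* by 0.97 ± 0.34 (0.18), *OCLN* by 0.78 ± 0.24 (0.14), *CLDN7* by 0.61 ± 0.28 (0.29), *CLDN4* by 0.49 ± 0.26 (0.36) and *TJP1* by -0.33 ± 0.25 (0.52) on the log2 scale, with the adjusted p in parentheses. For *F11R* (0.05 ± 0.28), *MARVELD2* (0.04 ± 0.28) and *CLDN6* (-0.02 ± 0.43) the standard errors exceeded the differences, and their CTCFL-OE libraries lay on both sides of Control. Libraries did not overlap with Control in 3 members that were higher (*CLDN3*, *CLDN7* and *OCLN*) and 2 that were lower (*CLDN1* and *TJP1*), beside 16.3% and 20.8% of all genes, together 37.1%. The CTCFL-OE libraries differed among themselves in the same order for nearly all members: replicate 1 was the lowest in 9 of 9, and replicate 3, which also had the largest mitochondrial share at 14.9%, was the highest in 8 of 9, all but *TJP1*; the part of that share in these values was not tested. *CLDN1* became a DEG without CTCFL-OE replicate 3 (-1.53, adjusted p = 0.032) and without CTCFL-KD replicate 1 (-1.03, adjusted p = 0.042), and *CLDN3* without CTCFL-OE replicate 1 (1.17, adjusted p = 0.080). Of the 22 fits run, 6 called *CLDN1* in CTCFL-OE and 3 called *CLDN3*, among them fits with a replicate block and with 2 groups only, given further on.

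**Figure D3:**
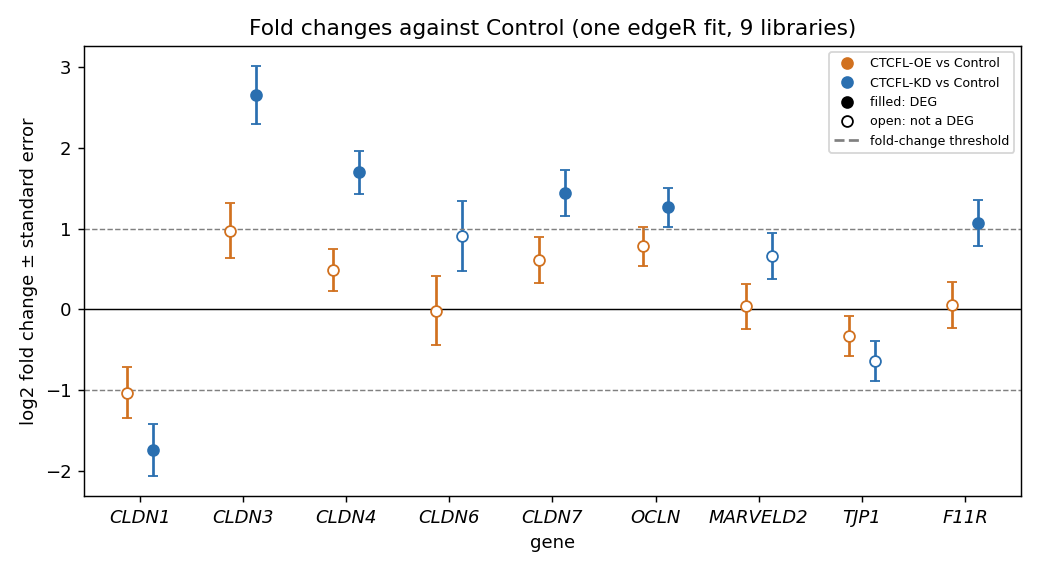
Log2 fold change ± standard error of each member in CTCFL-OE and CTCFL-KD against Control, from 1 edgeR fit of the 9 libraries, with filled points for DEGs and dashed lines at the fold threshold. Filled points are found in CTCFL-KD only, 5 above 0 and *CLDN1* below at -1.74; the CTCFL-OE points run from -1.03 to 0.97.

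Both comparisons share the Control libraries, so the difference between them was tested directly as CTCFL-KD against CTCFL-OE, with the CTCFL-KD thresholds. It was a DEG in 3 members, all higher in CTCFL-KD: *CLDN3* by 1.68 ± 0.34 (adjusted p = 0.0048), *CLDN4* by 1.21 ± 0.27 (adjusted p = 0.0073) and *F11R* by 1.02 ± 0.29 (adjusted p = 0.023). Of all genes 17.0% were DEGs here, 10.6% higher and 6.42% lower. *CLDN7* passed the adjusted p, as 26.8% of all genes did, at 0.83 ± 0.28 (adjusted p = 0.0499). The libraries of these 4 genes did not overlap between the manipulated groups, against 20.3% of genes higher and 19.5% lower, together 39.8%. *CLDN1*, at -0.71 ± 0.31 (adjusted p = 0.12), and *OCLN*, at 0.48 ± 0.24 (adjusted p = 0.16), were not shown to differ between knockdown and overexpression, and both lay on the same side of Control in all 6 libraries. *CLDN6* (0.92 ± 0.43), *MARVELD2* (0.62 ± 0.28) and *TJP1* (-0.31 ± 0.25) did not pass either. Without CTCFL-OE replicate 1 or without CTCFL-KD replicate 1 *CLDN3* was the only DEG left, and without CTCFL-OE replicate 3 there were 5, *CLDN6* and *CLDN7* added. Over all genes the 3032 DEGs of this comparison became 2544 to 3404 leaving out 1 library at a time. The *F11R* call lay at the fold threshold: it was also lost with RLE or upper-quartile scaling (both 0.99), with DESeq2 on all 9 libraries (0.99), with no low-count filter (0.94), with at least 10 counts in every library (0.996), with edgeR on the 2 groups (adjusted p = 0.076) and without CTCFL-OE replicate 2 (0.91, adjusted p = 0.095).

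CTCFL-KD replicate 1 stood apart from its fellows in a way that followed the make-up of the transcripts. Against the Control mean its median log2 ratio was 0.72 in the 20% of genes with the shortest exons and -0.53 in the 20% with the longest, over 11599 genes, while the other CTCFL-KD libraries ran from -0.14 to 0.02 in the same sets. Among the members, replicate 1 was the highest of the 3 knockdown libraries for *CLDN3*, *CLDN6*, *CLDN7*, *CLDN4* and *F11R*, whose longest transcripts have 47.7 to 69.2% G and C. It was the lowest for *CLDN1*, *MARVELD2*, *OCLN* and *TJP1*, whose longest transcripts have 39.9 to 44.8%. The log2 difference between replicate 1 and the mean of the other knockdown libraries ran from 1.35 for *CLDN6* (1739 exon bases) and 1.13 for *CLDN3* (1274) down to -0.57 for *OCLN* (11259) and -1.05 for *TJP1* (11315). Between these lengths the order did not hold, with -0.39 for *CLDN1* (3628) and -0.84 for *MARVELD2* (5366) but 0.61 for *CLDN4* (4699) and 0.67 for *F11R* (5061). With a trend on exon length and GC content removed from each library, the same 6 members were DEGs in CTCFL-KD: *CLDN3* differed by 2.16, *OCLN* by 1.52, *CLDN4* by 1.47, *CLDN7* by 1.15, *F11R* by 1.05 (adjusted p = 0.012) and *CLDN1* by -1.55. *CLDN6* was then at 0.57, *MARVELD2* at 0.77 (adjusted p = 0.028) and *TJP1* at -0.61 (adjusted p = 0.0097). The rises of *CLDN3*, *CLDN4* and *CLDN7* were thus smaller, and that of *OCLN* larger, than in the counts as deposited.

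**Figure D4:**
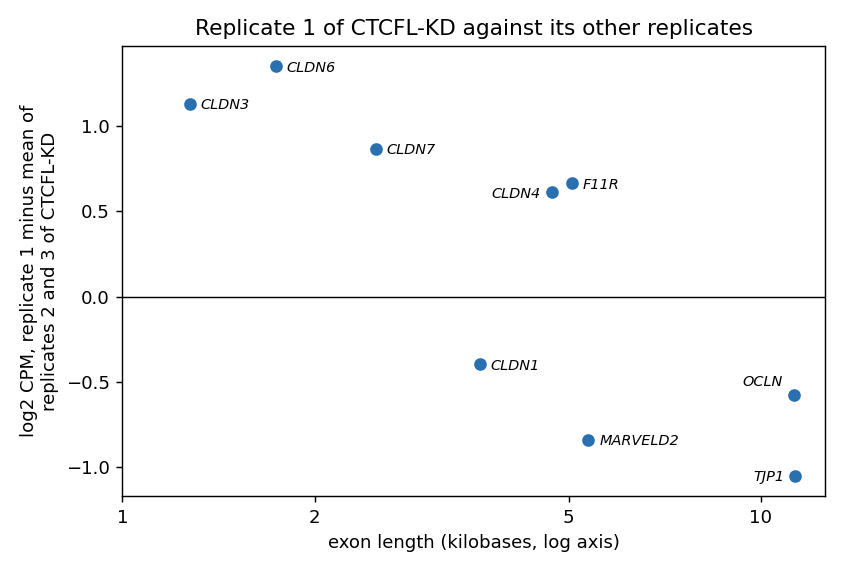
Exon length in kilobases (log axis) of the 9 members against the log2 CPM of CTCFL-KD replicate 1 minus the mean of CTCFL-KD replicates 2 and 3, 1 point a gene. *CLDN6*, *CLDN3* and *CLDN7*, the 3 shortest, lie between 0.87 and 1.35 above 0, and *TJP1*, *MARVELD2*, *OCLN* and *CLDN1* below 0.

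The members were then set beside 55 other genes of the junction: the remaining claudins, other membrane proteins of the junction, scaffolds, the polarity complexes that place it, and associated regulators. Of these 42 were tested; 11 of the 19 other claudins, *JAM3* and *IGSF5* had at most 10 counts in any library. In CTCFL-KD 10 of the 42 were DEGs, 9 higher and 1 lower, a share close to the 23.2% of all genes (15.3% higher, 7.94% lower), and the median log2 fold change was 0.26 against 0.08 over all genes. Of 7 tested membrane proteins other than claudins, 5 were DEGs, 4 of them higher, with a median of 1.47; the group is small and, like the others by role, carries no test. *ILDR1* and *LSR*, which encode angulins that recruit tricellulin to the corners between cells, rose by 2.52 ± 0.29 (adjusted p = 0.0001) and 1.99 ± 0.33 (adjusted p = 0.0011), and their relative *ILDR2* fell by 1.14 on the log2 scale (SE 0.34, adjusted p = 0.023). *ILDR2* was no longer a DEG without Control replicate 1 or 3 or without CTCFL-KD replicate 1 or 3 (-1.19 to -0.88, adjusted p 0.032 to 0.075). *ILDR1* went from 4.86, 6.68 and 5.32 CPM in Control to 29.5, 34.6 and 33.1 in CTCFL-KD, and *LSR* from 223, 203 and 216 to 1232, 653 and 658. *MARVELD2*, whose product they recruit, was not a DEG.

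*MARVELD3*, another MARVEL protein of the tight junction, rose by 1.47 ± 0.22 (adjusted p = 0.00052), from 9.91 to 11.9 CPM in Control to 27.1 to 32.3 in CTCFL-KD. *ESAM*, an adhesion molecule best known from endothelium, rose by 3.15 ± 0.51 (adjusted p = 0.00088), but from 5, 1 and 2 counts to 12, 23 and 18, so that its fold depends on very few reads. Of 8 tested other claudins 2 were DEGs, near the 23.2% of all genes: *CLDN9*, which lies 206 bases from *CLDN6* on chromosome 16, rose by 1.80 ± 0.33 (adjusted p = 0.0019), with 22.6, 8.86 and 10.1 CPM in CTCFL-KD against 3.55 to 4.21 in Control, and *CLDN23* rose by 1.30 ± 0.34 (adjusted p = 0.012; 0.055 without Control replicate 3). *CLDN9* was also higher in CTCFL-KD than in CTCFL-OE (2.01, adjusted p = 0.0016), while its neighbour *CLDN6* did not pass in either comparison.

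Against the 23.2% of all genes that were DEGs (15.3% higher), 1 of 9 scaffolds, 1 of 9 genes of the polarity complexes and 1 of 9 regulators were. Of the scaffolds this was *TJP3* (ZO-3), with a rise of 1.04 ± 0.21 (adjusted p = 0.0034), from 28.1 to 29.2 CPM in Control to 51.6 to 73.1 in CTCFL-KD. Of the polarity complexes it was *PARD6A* (1.09 ± 0.27, adjusted p = 0.0096), and the median of this group was -0.27. Neither *TJP3* nor *PARD6A* was a DEG without CTCFL-KD replicate 1 (0.87 and 0.78) or with the length and GC trend removed (0.73 and 0.78). Of the regulators it was *AMOT*, angiomotin, which binds polarity proteins and restrains the growth regulator YAP. It had 60.9, 82.4 and 71.5 CPM in Control, 42.1, 33.8 and 37.7 in CTCFL-OE libraries and 163, 240.4 and 209.7 in CTCFL-KD, so that the groups lay in 3 separate ranges. *AMOT* rose by 1.51 ± 0.20 in CTCFL-KD (adjusted p = 0.00027) and was the 1 gene of the wider list to pass the adjusted p in CTCFL-OE, where it was at -0.92 ± 0.20 (adjusted p = 0.056), under the fold of a DEG.

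In CTCFL-OE no gene of the wider list was a DEG by edgeR's quasi-likelihood test; 2.07% of all genes were. An unadjusted p under 0.05 was found in 8 of 42, near the 17.7% of all genes, DESeq2 on all 9 libraries called 1, *CLDN11*, and the median log2 fold change was 0.02. *CLDN11*, the claudin of myelin and testis, had 0.952, 0.661 and 0.658 CPM in Control and 1.60, 1.83 and 3.20 in CTCFL-OE (1.53 ± 0.42, adjusted p = 0.11). Between the manipulated groups 7 of 42 were DEGs, about the 17.0% of all genes (10.6% higher, 6.42% lower), with *AMOT*, *ILDR1*, *CLDN9*, *ESAM*, *LSR* and *MARVELD3* higher and *CLDN11* lower in CTCFL-KD. Of these, *CLDN11* was lost without Control replicate 2 and without replicate 2 or 3 of either manipulated group (-1.55 to -1.07, adjusted p 0.050 to 0.11) and with edgeR on the 2 groups (-1.43, adjusted p = 0.083), *ESAM* without CTCFL-OE replicate 2 (adjusted p = 0.057) and *MARVELD3* without CTCFL-OE replicate 1 or 2 (0.92 and 0.98).

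**Figure D5:**
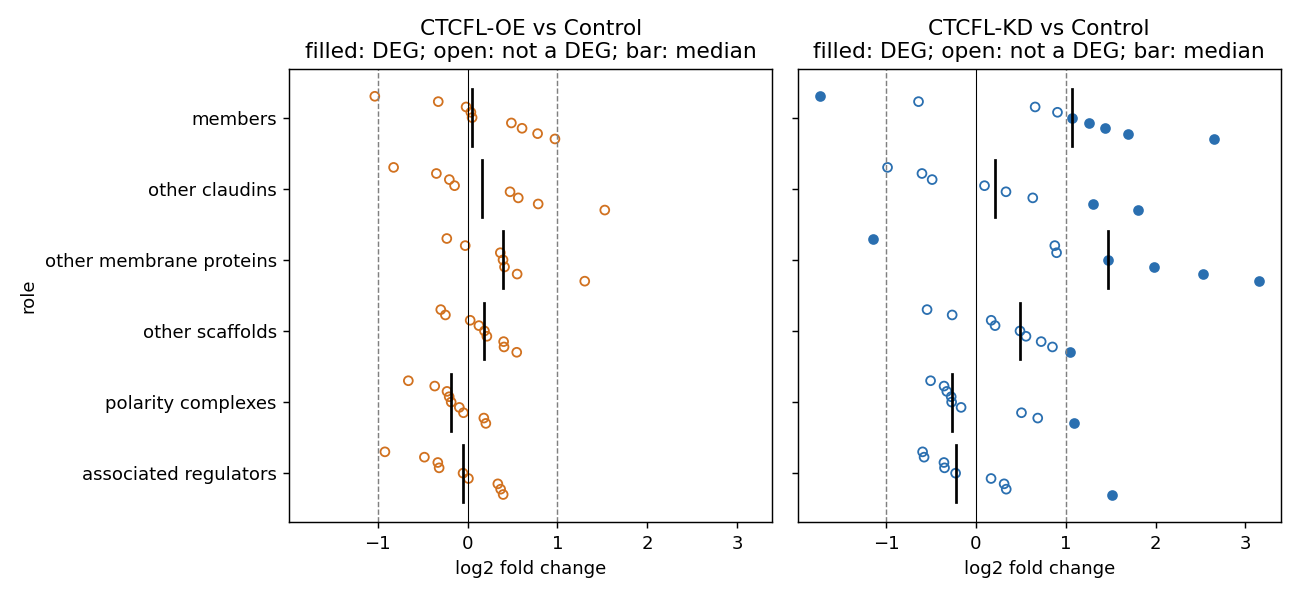
Log2 fold changes in CTCFL-OE (left) and CTCFL-KD (right) against Control for the 9 members and the tested genes of the wider list, grouped by role, with filled points for DEGs, a bar at each median and dashed lines at the fold threshold. In CTCFL-KD the median is 1.47 for other membrane proteins and 1.07 for the members, and -0.27 for polarity complexes; no point is filled in CTCFL-OE.

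Finally, 12 transcription factors known to induce or repress epithelial junction genes were measured, of which 8 were tested. In CTCFL-KD 4 were DEGs, where 23.2% of all genes were. *SNAI1*, encoding the repressor Snail whose E-box letters are printed above, fell by 1.84 on the log2 scale (SE 0.18, adjusted p = 3.9e-05), from 12.1, 10.9 and 9.62 CPM in Control to 3.16, 2.85 and 3.07 in CTCFL-KD, with 9.03, 8.47 and 8.05 in CTCFL-OE (adjusted p = 0.31). *TWIST1*, another repressor of epithelial genes, rose by 2.03 ± 0.26 (adjusted p = 0.0002), from 2.00 to 2.43 CPM to 7.19 to 11.6. *GRHL3*, a grainyhead factor of epithelial barriers, rose by 1.57 ± 0.30 (adjusted p = 0.0022), and *OVOL1*, which keeps cells epithelial, fell by 1.03 (SE 0.28, adjusted p = 0.015). *OVOL1* was at -0.98 without Control replicate 2 or 3 and at -0.87 without CTCFL-KD replicate 1, and then no DEG. By the adjusted p alone, *GRHL1* (0.83, adjusted p = 0.041) and *ELF3* (0.63, adjusted p = 0.014), both inducers, were also higher, so that 3 of 6 tested inducers passed as higher and 1 as lower, and of 2 tested repressors 1 passed in each direction, where 38.2% of all genes passed. *ZEB1*, *ZEB2*, *SNAI2* and *TWIST2* had at most 10 counts in any library and were not tested. No factor was a DEG in CTCFL-OE by edgeR (2.07% of all genes were), where 2 of 8 had an unadjusted p under 0.05, as 17.7% of all genes had, and DESeq2 called 0. Without CTCFL-OE replicate 1 *OVOL1* was a DEG there, higher by 1.14 (adjusted p = 0.028).

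Over the 9 libraries the log2 CPM of *CLDN3*, *CLDN4*, *CLDN7* and *F11R* moved together, with a Pearson r of 0.987 between *CLDN3* and *CLDN4*, 0.980 between *CLDN3* and *CLDN7*, 0.973 between *CLDN4* and *CLDN7* and 0.948 between *CLDN4* and *F11R*. *F11R* was at 0.904 with *CLDN3* and 0.899 with *CLDN7*. *CLDN6* moved with them as well, at 0.76 with *CLDN3*, 0.807 with *CLDN4*, 0.816 with *CLDN7* and 0.923 with *F11R*. *CLDN1* ran against them, from -0.76 with *CLDN3* to -0.218 with *CLDN6*, and its closest member was *TJP1* at 0.706. The points are 3 groups of 3 libraries that share their condition and, in CTCFL-KD replicate 1, the trend with transcript make-up, so these values describe the libraries and carry no test. Among 12770 protein-coding genes, the one most like *CLDN3* was *B4GALT3* (r = 0.997), for *CLDN4* it was *P4HB* (0.997), for *CLDN7* *LGALS3BP* (0.997), for *F11R* *NEU1* (0.991), for *CLDN6* *SHISA5* (0.978), for *CLDN1* *TSPAN2* (0.992), for *TJP1* *ZBTB38* (0.998), for *OCLN* *LRP1* (0.992) and for *MARVELD2* *SLC11A2* (0.986), each over 9 libraries.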

How the data were processed

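RNA-seq libraries of OVCAR3 (3 Control, 3 CTCFL-OE, 3 CTCFL-KD) were analysed from the raw gene counts deposited by the authors. Per their methods, reads were trimmed with Trimmomatic, aligned to GRCh38 with STAR and counted with featureCounts; the submitters' processing notes also list kallisto. Annotation release, strand setting and treatment of multi-mapping reads are not given in the sources used here.

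Counts were fitted across all genes in edgeR 4.0.16 (R 4.3.3) with filterByExpr, TMM factors and a robust quasi-likelihood fit of all 9 libraries with group as the only factor, and p-values were adjusted by Benjamini-Hochberg over 17794 genes. Standard errors are the absolute log2 fold change over the root of F. A library with 0 counts of a gene may hold up to 0.117 to 0.271 CPM of it (3 counts, after TMM scaling; counting error only). The scripts were tested on simulated data. DESeq2 1.42.0, other scalings and filters, a length and GC correction, a replicate block and each library left out were the alternatives. The block joins Control and CTCFL-KD by replicate number. For replicates 1, 2 and 3 their deviations correlated at r = 0.384, 0.221 and 0.265 over 11622 genes. With the length and GC trend removed r was 0.206, 0.127 and 0.194. Across numbers r was also positive for Control 2 with CTCFL-KD 3 (0.0852, trend removed -0.0284) and Control 3 with CTCFL-KD 2 (0.154, then 0.062). It was negative, -0.382 to -0.161 as counted, for the other unequal numbers, which all involve replicate 1. Deviations of 3 libraries from their mean sum to 0, so a match of replicate 1 alone can raise r in the others. The r values are thus not separate signs of pairing, which comes from the data, not from a stated batch.

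The members and gene lists were chosen with earlier results of these data known. All members are named, with *CTCFL* first as the targeted gene; of the lists, a gene is named if it is a DEG with its 3 treated libraries beyond all 3 Control libraries, at most 12 of the wider list by size and 4 of each other list. The most alike gene is the non-member protein-coding gene of at least 1 CPM with the highest Pearson r of log2 CPM (prior count 2). Other genes of the lists (*CLDN11*, *CLDN15*, *CLDN16*, *DSC2*, *CDH1*, *PKP3*, *NECTIN1*, *GRHL1*, *ELF3*, the catenins, the untested factors, *AMOT* in CTCFL-OE and the markers) were named after their values were seen.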

Additional observations from a re-analysis of the deposited data

How the results depend on the processing

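Of 567 log2 fold changes of the members under the alternatives, 532 kept their direction and their side of the DEG thresholds. In CTCFL-KD, *CLDN1*, *CLDN3*, *CLDN4*, *CLDN7* and *OCLN* were DEGs in every fit run, and the count of members was 5 to 6 (5 to 6 leaving out 1 library at a time) and of the wider list 8 to 11. In CTCFL-OE the count of members went from 0 to 1 in the 2-group fits of edgeR and DESeq2 (*CLDN3*, 1.02 and 1.01), with no low-count filter (*CLDN1*, -1.04), with DESeq2 on all 9 libraries (*CLDN1*, -1.02) and under the block, and it was 0 to 1 leaving out 1 library at a time. For the wider list in CTCFL-OE it was 1, *CLDN11*, with edgeR or DESeq2 on 2 groups, upper-quartile scaling, no low-count filter, the length and GC trend removed (with or without the block) and DESeq2 on all 9 libraries, and 0 to 3 leaving out 1 library at a time, the 3 being *CLDN11*, *CLDN15* and *AMOT* without CTCFL-OE replicate 1. CTCFL-KD against CTCFL-OE gave 1 to 5 members leaving out 1 library at a time; *F11R* was a DEG there in 12 of 21 alternatives. Directions reversed only for members near 0 in CTCFL-OE: *CLDN6* at 0.027 with edgeR on 2 groups, 0.030 with upper-quartile scaling, 0.0088 with at least 10 counts in every library, 0.021 with DESeq2 on 2 groups and -0.54 to 0.28 leaving out 1 library, *MARVELD2* at -0.032 under the block and -0.27 to 0.25 leaving out 1 library, and *F11R* at -0.32 to 0.25 leaving out 1 library. Over all genes the CTCFL-OE count of 368 DEGs was 835 with edgeR on 2 groups, 826 with no low-count filter, 553 with the length and GC trend removed, 642 and 846 with DESeq2 on 9 libraries and on 2 groups, and 44 (without Control replicate 3) to 1184 (without CTCFL-OE replicate 1). The CTCFL-KD against CTCFL-OE count of 3032 was 1947 with at least 10 counts in every library, and the CTCFL-KD count of 4132 ran from 2917 to 5127. The cause of these differences was not tested.

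With the replicate number as a block, 6 members were DEGs in CTCFL-KD and 1 in CTCFL-OE (*CLDN1*, -1.14, adjusted p = 0.070; with the length and GC trend also removed -1.01, adjusted p = 0.050), where 302 DEGs were called over all genes; the block changed no other call of a member. Same-numbered Control and CTCFL-OE libraries correlated at -0.045, 0.225 and -0.050, so in that comparison they share only a number.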

Other observations

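Adherens junctions and desmosomes, the other contacts of epithelial cells, were measured by 18 genes, all tested. These include *EPCAM*, a general adhesion protein that the list placed with the desmosome. In CTCFL-KD 5 were DEGs and all 5 were higher, and the median log2 fold change was 0.50 against 0.08 over all genes, of which 23.2% were DEGs and 15.3% higher ones. By the adjusted p alone 9 passed as higher and 1, the desmosomal plakophilin *PKP3*, as lower (-0.59, adjusted p = 0.021), where 38.2% of all genes passed. Nectins, the immunoglobulin-type proteins that start adherens junctions, took 3 of the 5: *NECTIN4* rose by 1.82 ± 0.20 (adjusted p = 8.3e-05), from 10.7, 12.2 and 11.6 CPM in Control to 47.5, 37.4 and 37.1, *NECTIN3* by 1.35 ± 0.28 (adjusted p = 0.0037) and *NECTIN2* by 1.25 ± 0.26 (adjusted p = 0.0035; 0.97 with the length and GC trend removed, under the fold of a DEG). The remaining nectin of the list, *NECTIN1*, was at 0.79 (adjusted p = 0.011), under the fold of a DEG. All CTCFL-KD libraries of these nectins were above Control, as for 28.7% of all genes. *EPCAM*, whose product binds claudin-7, rose by 1.19 ± 0.28 (adjusted p = 0.0074), from 347 to 357 CPM in Control to 657 to 1058 (0.94 and no DEG without CTCFL-KD replicate 1), and the desmosomal cadherin *DSC2* by 1.18 ± 0.25 (adjusted p = 0.0039). E-cadherin, *CDH1*, was at 0.85 ± 0.23 (adjusted p = 0.013), under the fold of a DEG, and the catenins *CTNNB1*, *CTNNA1* and *CTNND1*, the cytoplasmic partners of cadherins, were at -0.06, -0.28 and -0.33 with adjusted p from 0.14 to 0.81. *EPCAM* and *CDH1* are also among the ovarian carcinoma markers.

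In CTCFL-OE none of the 18 was a DEG by edgeR's quasi-likelihood test, 3 had an unadjusted p under 0.05, near the 17.7% of all genes, and DESeq2 called 0. *CLDN16*, a claudin known from the kidney tubule, 94 bases from *CLDN1* and named after its value was seen, had 97.7, 92.1 and 98.9 CPM in Control, 50.1, 37.3 and 75.8 in CTCFL-OE libraries and 24.9, 49.9 and 70.7 in CTCFL-KD, with a knockdown difference of -0.98 ± 0.35 (adjusted p = 0.044), under the fold of a DEG.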
